A study of Mus musculus with 22 samples.

Results

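The regions described here were the 300 autosomal 100 kb bins of the mouse genome in which 5-methylcytosine (5mC) was lowest in all 3 brain tissues studied. The 5mC levels came from oxBS-seq, in which 5-hydroxymethylcytosine (5hmC) is first oxidized so that bisulfite leaves only 5mC to be read as C. The tissues were cortex (3 libraries), olfactory bulb (2 libraries) and cerebellum (2 libraries) of female C57BL/6 mice at 8 weeks of age, all untreated and with no engineered allele named, and the replicates came from independent mice. A second assay, TAB-seq, gave 5hmC in 9 libraries, 3 per tissue. Each library was deposited as a level per bin, the modified fraction from 0 to 1, so coverage was unknown and precision could be judged only from the spread between libraries. Of 24011 autosomal bins with a level above 0 and below 1 in all 7 oxBS-seq libraries, the members were chosen by 5mC as the 300 in which the highest of the 3 tissue means was lowest, or 1.25%. These levels made the choice, so they are given as a description and were not tested among the members.

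In mammals most CpG sites carry 5mC, which DNMT enzymes write and TET enzymes oxidize to 5hmC, a mark that is abundant in neurons. CpG islands, stretches of DNA rich in CpG sites and GC, are the common exception, since they lie over most promoters and are usually free of 5mC. Islands are especially broad over genes of developmental transcription factors such as the Hox clusters, whose homeodomain proteins set position along the body axis and which Polycomb proteins keep silent in cells that do not use them.

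What such DNA looks like can be read from the 200 bases before a start site. The sequences below are shown to set the lowest members against bins of ordinary 5mC; they are those of the first protein-coding gene in each of the lowest 3 members that hold a coding start, and of 2 genes in the bins nearest the median of all autosomal bins. They were read 5′ to 3′ on the strand of the gene from GRCm38, and the capitals mark each CG. Hoxc13 (chr15:102920903-102921102, plus strand) has 12 CG, Gm36079 (chr13:120027012-120027211, minus strand) has 9, and Hoxa5 (chr6:52204588-52204787, minus strand) has 22. In the bins near the median, Neto2 (chr8:85700925-85701124, minus strand), an auxiliary subunit of kainate receptors, has 26 CG and Gm7168 (chr17:13948173-13948372, plus strand) has 1.
Hoxc13: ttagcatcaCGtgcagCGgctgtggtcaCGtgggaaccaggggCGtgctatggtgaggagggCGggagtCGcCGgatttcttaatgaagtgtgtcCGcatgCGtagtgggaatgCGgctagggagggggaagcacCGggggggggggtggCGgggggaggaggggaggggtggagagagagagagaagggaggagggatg
Gm36079: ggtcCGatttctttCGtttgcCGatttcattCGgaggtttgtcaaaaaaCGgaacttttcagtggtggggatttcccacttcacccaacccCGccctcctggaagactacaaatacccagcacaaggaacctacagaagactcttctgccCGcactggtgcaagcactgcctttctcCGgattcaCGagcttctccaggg
Hoxa5: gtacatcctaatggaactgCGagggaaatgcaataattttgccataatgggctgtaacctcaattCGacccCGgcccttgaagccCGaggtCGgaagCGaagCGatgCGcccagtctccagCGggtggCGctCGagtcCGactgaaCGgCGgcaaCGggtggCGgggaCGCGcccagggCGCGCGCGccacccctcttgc
Neto2: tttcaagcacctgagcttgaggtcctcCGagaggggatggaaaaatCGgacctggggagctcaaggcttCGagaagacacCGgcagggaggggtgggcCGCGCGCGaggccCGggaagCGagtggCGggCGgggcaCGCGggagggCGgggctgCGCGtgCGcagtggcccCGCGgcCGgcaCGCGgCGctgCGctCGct
Gm7168: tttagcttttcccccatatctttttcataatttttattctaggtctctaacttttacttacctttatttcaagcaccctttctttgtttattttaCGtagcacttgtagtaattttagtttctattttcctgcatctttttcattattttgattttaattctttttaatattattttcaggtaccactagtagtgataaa

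The Neto2 sequence holds more CG than any of the other 4, although the highest tissue mean of its bin was 0.763, against 0.0794 in the bin of Hoxc13. Over all genes, the median was 10 CG in the 200 bases before the 1137 coding starts in the members and 7 before the 20771 coding starts in all autosomal bins. At least 10 CG stood before 56.0% of the starts in members and 42.9% of all starts.

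The lowest member covered most of the HoxC cluster (chr15:102900001-103000000, with the starts of Hoxc13, Hoxc12, Hoxc11, Hoxc10, Hoxc5, Hoxc9, Hoxc8 and Hoxc6). Its 5mC level was 0.0719, 0.0826 and 0.0600 in the cortex libraries, 0.0890 and 0.0699 in the olfactory bulb libraries and 0.0679 and 0.0713 in the cerebellum libraries. The libraries of the 3 tissues overlapped. The third member was the bin of Hoxa5 to Hoxa13 (chr6:52200001-52300000), with 0.138, 0.142 and 0.120 in the cortex, 0.139 and 0.124 in the olfactory bulb and 0.146 and 0.139 in the cerebellum. Here a share of 0.522 of the CpG sites lay in 19 islands, and the tissues again overlapped.

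Of the 10 lowest members, 7 held Hox genes. Besides the bins of Hoxc13 and Hoxa5 these were the bins of Hoxb5 to Hoxb1, of Evx2 with Hoxd13 to Hoxd9, of Hoxb9 to Hoxb6, of Hoxd8 to Hoxd1 and of Hoxc4. The highest tissue mean in the 10 ran from 0.0794 to 0.279. The eighth (chr13:23500001-23600000) held 14 histone genes of the Hist1 cluster, whose intronless genes encode the bulk of the histones made in S phase. Its mean level was 0.210 ± 0.00963 in cortex (SD, n = 3), 0.232 ± 0.0211 in the olfactory bulb (SD, n = 2) and 0.256 ± 0.00641 in cerebellum (SD, n = 2).

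The second and the fourth members differed from the Hox bins in sequence. The second (chr13:120000001-120100000, with the starts of Gm36079 and Gm21188) had 0.0921, 0.117 and 0.122 in the cortex, 0.115 and 0.102 in the olfactory bulb and 0.0989 and 0.121 in the cerebellum, but held 1 island, with a share of 0.0306 of its CpG sites. The fourth (chr17:39800001-39900000) held no coding start; an annotated ribosomal RNA gene (CT010467.1) and the long noncoding RNAs Gm26917, Gm42418 and AY036118 began in it, and repeats made up a share of 0.484 of its bases. Its level was 0.182, 0.151 and 0.167 in the cortex, 0.174 and 0.218 in the olfactory bulb and 0.139 and 0.174 in the cerebellum. Ribosomal RNA genes occur in many copies, and only reads that mapped uniquely entered the levels.

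**Figure D1:**
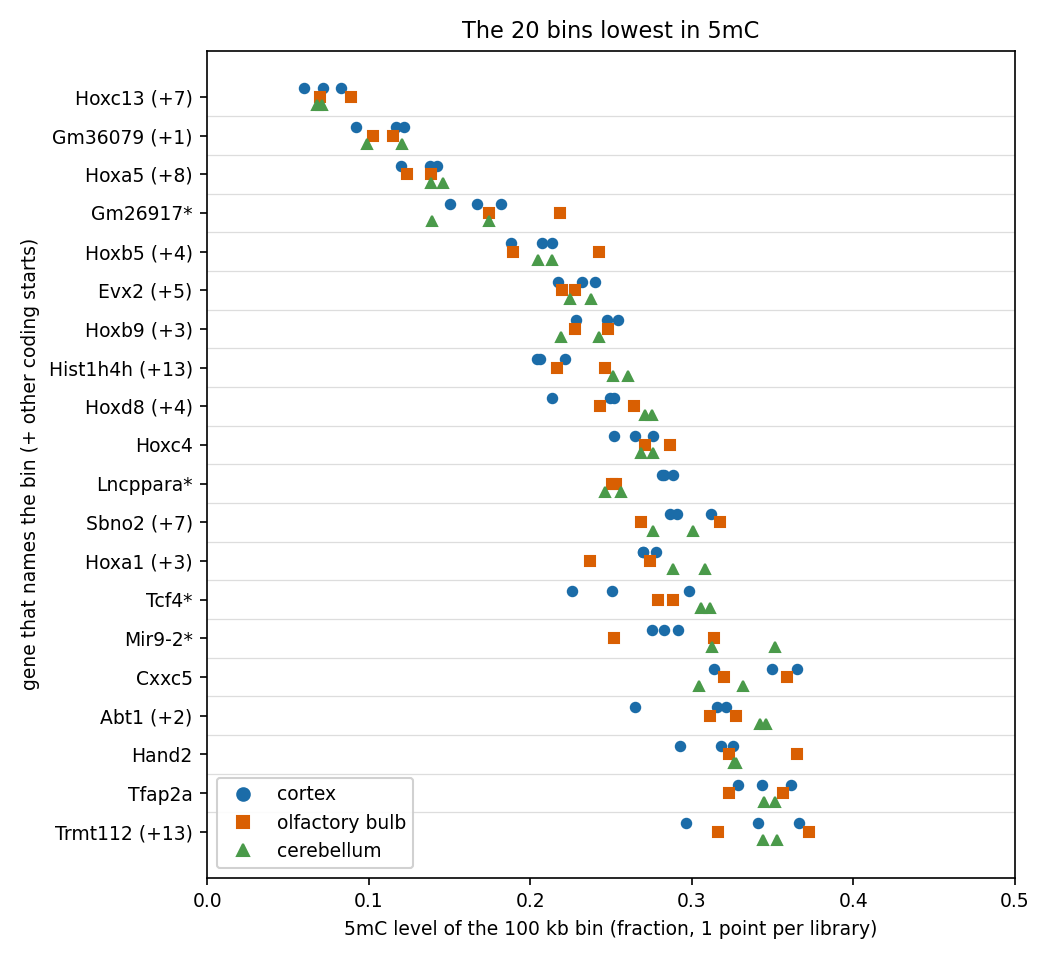
5mC level (fraction, horizontal axis) of the 20 lowest members, 1 row per bin and 1 point per oxBS-seq library; circles are cortex (3 libraries), squares olfactory bulb (2) and triangles cerebellum (2). A row is named by its first coding gene with the number of further coding starts in brackets, or, with an asterisk, by another gene where no coding gene starts in it. Levels run from about 0.0600 in the Hoxc13 bin upward, and the tissues overlap in most rows.

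The 300 members were dense in genes and in islands. A protein-coding start (the outermost 5′ end of a gene in GENCODE M21) lay in 277 of the 300, or 92.3%, against 41.9% of all autosomal bins. At least 3 starts lay in 53.3% of the members and 10.8% of all bins, and at least 5 in 34.0% and 3.20%. The median was 3 starts per member and 0 over all bins. A CpG island (windows of 500 bases with a GC share of at least 0.55 and at least 0.65 of the CG expected from the base composition) lay in 97.3% of the members and 42.7% of all bins, and at least 5 islands in 57.7% and 2.20%.

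The members were also richer in CpG sites, with a median of 1576.5 against 776, and in GC, with a median share of 0.485 against 0.414. The median share of CpG sites that lay in islands was 0.274 in members and 0 over all bins. Repeats made up a median share of 0.254 of a member and 0.317 of all bins. The 300 members were 1.25% of the bins and held 5.47% of the coding starts, 8.71% of the islands and 2.34% of the CpG sites.

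Read the other way, the share of bins that were members grew with the number of islands. Of 13759 bins with no island 8 were members, or 0.0581%. The share was 4.65% among bins with 3 or 4 islands, 23.4% among 436 bins with 5 to 7 and 76.7% among 73 bins with 8 to 11. Of the 20 bins with 12 or more islands, 15 were members. By coding starts the shares were lower, with 32.5% of 117 bins with 8 to 11 starts and 7 of 13 bins with 12 or more. Across all 24011 bins the highest tissue mean had a Pearson correlation of -0.73 with the bases in islands and of -0.54 with the number of coding starts. Within the 300 members these were -0.34 and -0.16. The members were chosen by this same mean, which narrows its range, so their values cannot be set against those of all bins. Neighbouring bins share libraries and base composition, so these values are a description.

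**Figure D2:**
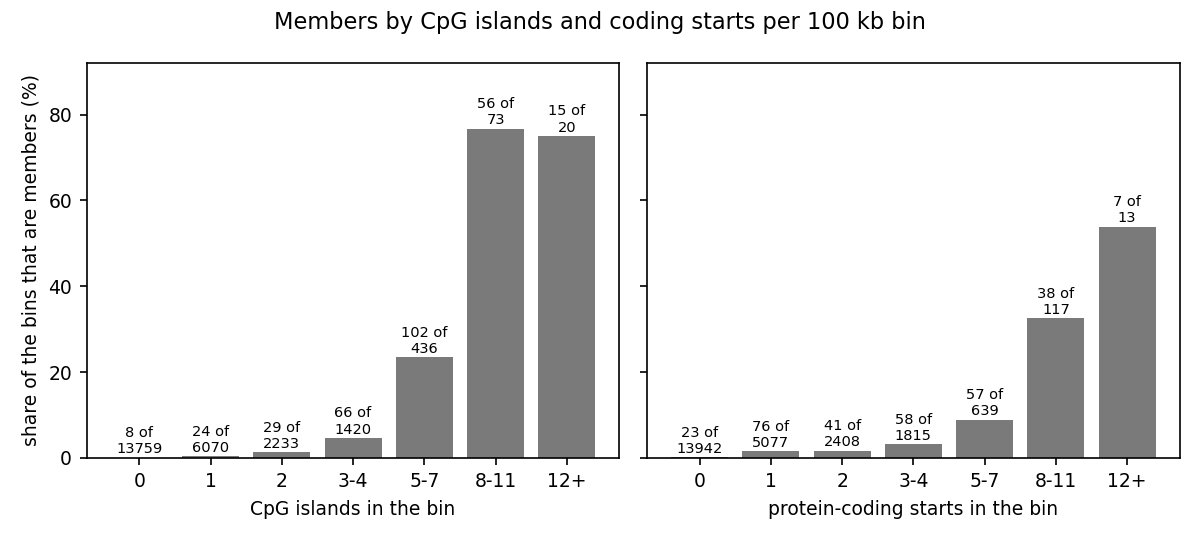
Share of autosomal bins that were members (%, vertical axis), by the number of CpG islands (left) and of protein-coding starts (right) in the 100 kb bin; the numbers over the bars give members of bins. The share reaches 76.7% for 8 to 11 islands and 32.5% for 8 to 11 coding starts.

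By family, the Hox genes stood at 1 end. All 39 Hox genes with a start in the bins lay in members, in 9 bins of 9, of which Hoxb13 was in the highest, at rank 102. Of 79 histone genes, 53 or 67.1% lay in members, in 7 bins of 21. Below the Hist1 bin already described, the next lowest histone bins were those of Hist1h2bl and neighbours (chr13:21700001-21800000, 0.345 ± 0.00739 in cortex, SD, n = 3) and of Hist1h2ah and neighbours (chr13:22000001-22100000, 0.347 ± 0.00693).

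Other homeobox genes were members in 34 of 144 cases, or 23.6%, and other developmental transcription factors in 48 of 184, or 26.1%, against 5.47% of all coding genes. The lowest bins with other homeobox genes were those of Evx2, of Six3 and Six2, which pattern the forebrain and kidney, and of Uncx. The Six3 bin (chr17:85600001-85700000) had 0.324 ± 0.0217 in cortex (SD, n = 3), 0.392 ± 0.0339 in the olfactory bulb (SD, n = 2) and 0.316 ± 0.00279 in cerebellum (SD, n = 2). The lowest with other developmental factors were the bins of Hand2, a factor of heart and limb (0.312, 0.344 and 0.327 in the same order), of Tfap2a, a factor of neural crest (0.344, 0.340 and 0.348), and of Klf1, a factor of red blood cells (0.319, 0.361 and 0.328). These 3 factors are known from tissues other than brain. The bin of Klf1 also held 8 other coding starts, among them Junb and Prdx2.

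Most housekeeping families lay between these and the 5.47% of all coding genes, and proteasome genes lay near it. Of ribosomal protein genes 11 of 76 lay in members, or 14.5%, with the lowest in the bins of Rps10, Rplp2 and Rps18. Of mitochondrial ribosomal proteins 9 of 78 did, or 11.5%, and of subunits and assembly factors of the respiratory chain 8 of 99, or 8.08%. Of RNA polymerase and splicing genes 8 of 82 did, or 9.76%, and of proteasome genes 2 of 48, or 4.17%. Both proteasome genes, Psmb9 and Psmb8, lay in 1 bin (chr17:34100001-34200000), so this share rests on a single bin. Of signalling ligands 7 of 85 did, with Fgf22, Gdf15 and Gdf1 in the lowest bins. Of 22 enzymes and readers of DNA methylation 3 lay in members: Mbd3, which binds with the NuRD complex (0.383, 0.394 and 0.384), the methyltransferase Dnmt3a (0.425, 0.410 and 0.404) and the oxidase Tet3 (0.479, 0.482 and 0.473). Some other families had few or no members. Olfactory receptors gave 2 of 1087 genes, vomeronasal receptors 2 of 324, zinc finger genes 16 of 443, keratins 0 of 109 and defensins 0 of 64. None of the 38 imprinted genes lay in a member, and neuronal channels and receptors gave 5 of 152. Clustered protocadherins gave 3 of 57, or 5.26%, near the share of all coding genes.

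A developmental gene (Hox, other homeobox, other developmental factor or signalling ligand) began in 86 members, or 28.7%, against 1.66% of all bins. These 86 had a median of 2 coding starts and 5 islands. The 191 members with other coding starts only had a median of 4 starts and 5 islands. Developmental genes began in 7 of the 10 lowest members, in 27.5% of ranks 11 to 50, in 28.0% of ranks 51 to 100, in 26.0% of the next 100 and in 28.0% of the last 100.

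A coding start was missing from 23 members, and 20 of these lay inside a coding gene that began elsewhere. Among them were 3 neighbouring bins of Tcf4, a transcription factor of neurons, 2 of Celf4 and 1 each of Celf2, both RNA-binding proteins, and of Ank2 and Ank3, which anchor membrane proteins in axons. The lowest Tcf4 bin (chr18:69500001-69600000) had 0.251, 0.299 and 0.226 in the cortex, 0.289 and 0.279 in the olfactory bulb and 0.312 and 0.306 in the cerebellum. Of the 23 bins 6 held no island. The bin of Mir9-2 (chr13:83700001-83800000), a microRNA of neural progenitors, overlapped no coding gene and had 0.283, 0.283 and 0.332 in the 3 tissues. The bin of Lncppara (chr15:85600001-85700000) had 0.284, 0.252 and 0.251.

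Most members stood alone. Of the runs of neighbouring members, 234 were single bins, 18 were pairs, 3 held 3 bins, 3 held 5 and 1 held 6. The longest was 6 bins on chr8:70300001-70900000, with 35 coding starts, among them Crtc1, Jund, Rab3a and Pik3r2. Runs of 5 lay on chr10:80100001-80600000 with 28 starts (Stk11, Cirbp, Ndufs7, Tcf3), on chr10:81100001-81600000 with 33 (Map2k2, Eef2, Gna11, Nfic) and on chr8:84600001-85100000 with 32 (Lyl1, Nfix, Calr, Klf1). By chromosome the share of bins that were members ran from 0.315% on chromosome 16 and 0.329% on chromosome 14 to 2.69% on chromosome 11 and 3.26% on chromosome 19.

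Levels were higher outside the members, in part by construction, since the rule took the lowest bins of these libraries. The mean in cortex was 0.407 in the members, 0.602 in the 501 bins next to a member, 0.630 at 200 kb and 0.654 at 1000 kb. In olfactory bulb it was 0.418, 0.627, 0.655 and 0.684, and in cerebellum 0.419, 0.636, 0.670 and 0.705. The neighbours still lay under the mean of the bins that were not members, which was 0.677, 0.709 and 0.736 in the 3 tissues. At the edge of the choice, the bins just inside included those of Ebf3 (highest tissue mean 0.497200) and Sox2 (0.498083), the last member. The bins just outside included those of A3galt2 (0.498205), the first, and Arpp21 (0.499079).

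**Figure D3:**
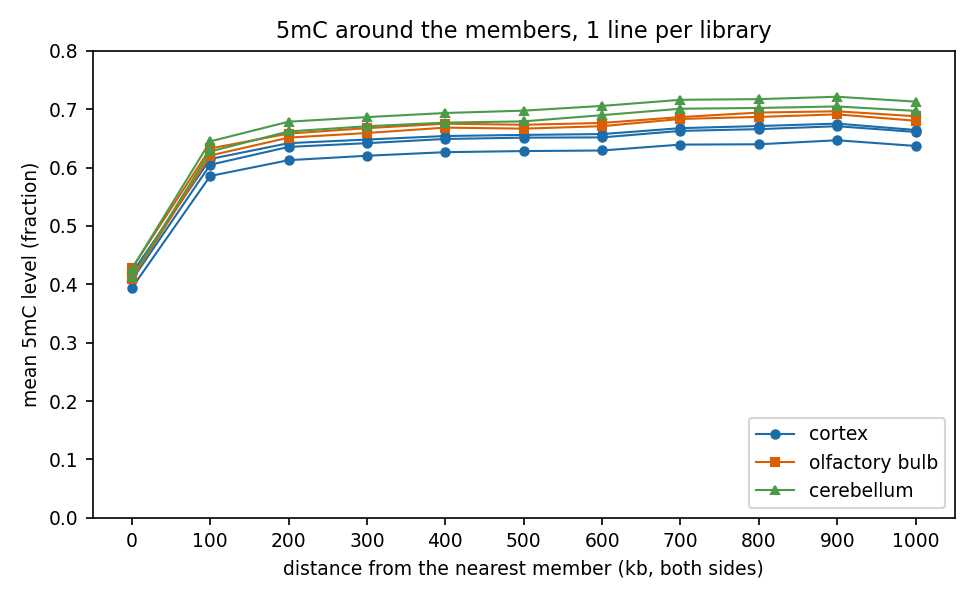
Mean 5mC level (fraction, vertical axis) of the members at 0 kb and of the bins at 100 to 1000 kb from the nearest member, on both sides; each line is 1 oxBS-seq library. All 7 lines rise most between 0 and 100 kb, in cortex from a tissue mean of 0.407 to 0.602, and the tissues lie closer together at 0 kb than at 1000 kb. The members were chosen by these levels, so both are in part set by the choice.

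The 3 tissues had nearly the same mean level in the members. It was 0.407, 0.419 and 0.394 in the cortex libraries, 0.427 and 0.409 in the olfactory bulb libraries and 0.427 and 0.412 in the cerebellum libraries, so the tissues overlapped. In the other bins the mean was 0.677 ± 0.0148 in cortex (SD, n = 3), 0.709 ± 0.00283 in the olfactory bulb (SD, n = 2) and 0.736 ± 0.0115 in cerebellum (SD, n = 2). The distance from the members to the other bins was 0.271 ± 0.00599 in the cortex, 0.291 ± 0.01002 in the olfactory bulb and 0.317 ± 0.000991 in the cerebellum. The rule took the highest tissue mean, which by construction leaves little room for a tissue that is high.

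The order of the tissues varied among members. Cerebellum was highest in 143, olfactory bulb in 117 and cortex in 40, while over all bins these were highest in 77.4%, 20.8% and 1.73%. The range over the 3 tissue means was under 0.05 in 171 members, or 57.0%, against 27.8% of all bins, and over 0.1 in 29 members. All 7 libraries lay under 0.5 in 234 members. Libraries of 1 tissue differed too: olfactory bulb replicate 1 was above replicate 2 in 231 of the 300 members, by a mean of 0.0182, against 56.3% of all bins and 0.00419. In the bin of Lmbrd1 (chr1:24600001-24700000, chosen after its values were seen) the libraries of 1 tissue lay far apart, with 0.328, 0.172 and 0.136 in the cortex, 0.192 and 0.260 in the olfactory bulb and 0.463 and 0.316 in the cerebellum.

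On the scale log2(level/(1 − level)), limma, with p-values adjusted by Benjamini-Hochberg over all 25664 bins, called 63 of the 300 members between olfactory bulb and cortex (all bins 39.7%), 43 of them higher in olfactory bulb (37.6%) and 20 lower (2.18%). Between cerebellum and cortex it called 116 (76.4%), 80 higher in cerebellum (71.9%) and 36 lower (4.44%). Between cerebellum and olfactory bulb it called 83 (43.0%), 39 higher in cerebellum (35.3%) and 44 lower (7.69%). The rule used these levels, and the comparisons share libraries, so nothing is read from the counts. Over all bins the standard error lay between 0.117 and 0.146 in the comparisons with cortex and between 0.128 and 0.160 in the third. Limma pooled most of the spread over bins, so a p-value hardly reflects the spread of its own bin. Over all bins the median difference on this scale was 0.22 for olfactory bulb minus cortex, 0.43 for cerebellum minus cortex and 0.19 for cerebellum minus olfactory bulb, against 0.10, 0.11 and 0.01 in the members. Relative to these shifts, with libraries centred on their medians, the calls among members were 3 higher (8.81% of all bins under the same centring) and 59 lower (9.90%) in the first comparison, 5 higher (25.7%) and 187 lower (24.3%) in the second, and 16 higher (22.1%) and 99 lower (21.3%) in the third. These too rest on levels that the rule used. Without centring, leaving out olfactory bulb replicate 1 changed the first count from 63 to 19 and without replicate 2 it was 31, and without cerebellum replicate 1 the second was 69. The third was 43 without olfactory bulb replicate 2, 50 without cerebellum replicate 1 and 53 without either of the other libraries of these 2 tissues, with more higher than lower calls in the last cases.

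Single members were picked by the largest differences in mean per pair of tissues and direction, among those that limma called and whose libraries did not overlap. The calls and the lack of overlap in that pair were thus part of the choice. These members are described by their values alone. Levels were means over all cells of a tissue, so fewer cells without 5mC and more 5mC per cell cannot be told apart.

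Olfactory bulb was low in the bins of Dlx genes, homeobox factors of inhibitory neurons. The bin of Dlx6 and Dlx5 (chr6:6800001-6900000) had 0.207 and 0.194 in olfactory bulb, against 0.391, 0.368 and 0.378 in cortex and 0.433 and 0.425 in cerebellum. The bin of Dlx1 and Dlx2 (chr2:71500001-71600000) had 0.308 and 0.288 in olfactory bulb, against 0.429, 0.446 and 0.428 in cortex and 0.508 and 0.477 in cerebellum. In both, the olfactory bulb libraries lay below all others. The same held in the bin of Zcchc14 (chr8:121600001-121700000), with 0.284 and 0.323 in olfactory bulb, where cortex had a mean of 0.444 and cerebellum 0.403.

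Cerebellum was high in the bin of Sox2, a factor of neural stem cells and glia, and in that of Mir9-3. The Sox2 bin (chr3:34600001-34700000) had 0.508 and 0.488 in cerebellum, against 0.360, 0.325 and 0.343 in cortex and 0.331 and 0.285 in olfactory bulb. The Mir9-3 bin (chr7:79500001-79600000), which overlaps Rhcg, had 0.443 and 0.416 in cerebellum, 0.301, 0.297 and 0.255 in cortex and 0.213 and 0.204 in olfactory bulb. The bin of Map4k4, a kinase (chr1:39900001-40000000), had 0.445 and 0.436 in cerebellum and at most 0.362 in the other libraries.

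Other members were low in cerebellum. The bin of Foxo3, a forkhead factor of stress responses (chr10:42200001-42300000), had 0.320 and 0.294 in cerebellum, against 0.503, 0.499 and 0.488 in cortex and 0.485 and 0.472 in olfactory bulb. The bin of Snap25, a protein of synaptic vesicle fusion (chr2:136700001-136800000), had 0.297 and 0.318 in cerebellum, 0.486, 0.489 and 0.467 in cortex and 0.431 and 0.421 in olfactory bulb. The bin of Spred2, an inhibitor of Ras signalling (chr11:19900001-20000000), had 0.327 and 0.304 in cerebellum and at least 0.402 in the others.

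The bin of Lyl1 (chr8:84700001-84800000), which also overlaps Nfix, a nuclear factor I gene, differed in all 3 tissues. Its level was 0.169 and 0.180 in cerebellum, 0.266, 0.299 and 0.295 in cortex and 0.450 and 0.422 in olfactory bulb, and no 2 tissues overlapped. The bins of Sqstm1 (chr11:50200001-50300000) and Mast3 (chr8:70800001-70900000) were higher in olfactory bulb than in cortex, with means of 0.493 and 0.411 for Sqstm1 and 0.460 and 0.379 for Mast3.

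**Figure D4:**
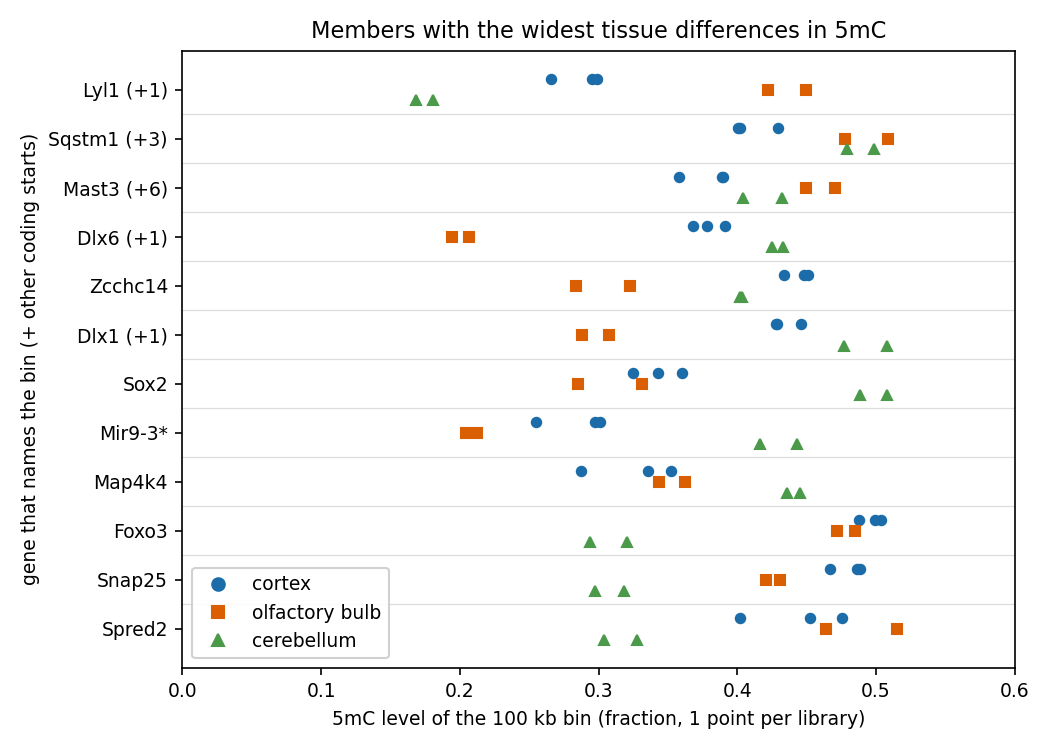
5mC level (fraction, horizontal axis) of 12 members, 1 row per bin and 1 point per oxBS-seq library. They had the largest called rises and falls without overlap in each pair of tissues. Other members with wide ranges, such as the bin of Zfp608, are not shown. Circles are cortex, squares olfactory bulb and triangles cerebellum, and the asterisk marks a bin without a coding start. The olfactory bulb libraries lie lowest for Dlx6 and Dlx1 and the cerebellum libraries highest for Sox2, at 0.508 and 0.488.

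The labelled tissues were checked through the same levels, in the 100 kb bins over marker genes. The 5mC level was lowest in the named tissue for 6 of 7 cortex genes, 6 of 7 olfactory bulb genes and 4 of 7 cerebellum genes. Dlx1 and Dlx2 shared a bin, as did Zic1 and Zic4, so these are counts of genes and not of separate bins. The exceptions were the cortex gene Slc17a7, lowest in cerebellum, and the olfactory bulb gene Th, lowest in cortex. The cerebellum genes Gabra6, Calb1 and Pcp2 were also lowest in cortex. For Sp8 olfactory bulb was lowest by little, at 0.399 against 0.414 in cortex and 0.409 in cerebellum. Over all autosomal bins cortex was lowest in 81.2%, olfactory bulb in 10.4% and cerebellum in 8.46%, so the count for cortex is near the share of all bins and does not check that label. Of markers of other cells, 4 of 5 oligodendrocyte genes, 2 of 3 astrocyte genes and 2 of 3 microglia genes were lowest in cortex, as most bins were, and their part in the tissue differences above was not tested.

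5hmC was measured in other libraries and was not used to choose the members, but in bins of 1 Mb, so most of each value came from DNA outside the members. Of 2581 such bins, 225 held members: 176 held 1, 33 held 2 and 16 held 3 or more. In cerebellum the bins with members had a mean 5hmC level of 0.122 ± 0.00266 (SD, n = 3), against 0.0963 ± 0.00175 in the 2188 autosomal bins without. In cortex the means were 0.172 ± 0.00999 and 0.169 ± 0.00978, and in olfactory bulb 0.154 ± 0.00440 and 0.150 ± 0.00440. The bins with members were higher in all 9 libraries. The libraries had 0.170, 0.183 and 0.163 with members and 0.167, 0.179 and 0.160 without in cortex. In olfactory bulb they had 0.152, 0.159 and 0.151 with members and 0.147, 0.155 and 0.148 without, and in cerebellum 0.120, 0.121 and 0.125 with members and 0.0955, 0.0951 and 0.0983 without. Among 1 Mb bins with 30 or more coding starts, those with members were also higher in each tissue, with 0.154 against 0.135 in cortex, 0.129 against 0.108 in olfactory bulb and 0.111 against 0.0826 in cerebellum. Among bins with at most 4 starts the values were 0.172 against 0.165, 0.166 against 0.148 and 0.109 against 0.0860 in the same order. By number of members, cortex and olfactory bulb were above the bins without members only in bins with 1 member (0.175 and 0.157). With 2 members they had 0.165 and 0.148, and with 3 or more 0.159 and 0.139, below the bins without. Cerebellum had 0.122, 0.121 and 0.121 in the same order, above the bins without. These are means over bins and were not tested.

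**Figure D5:**
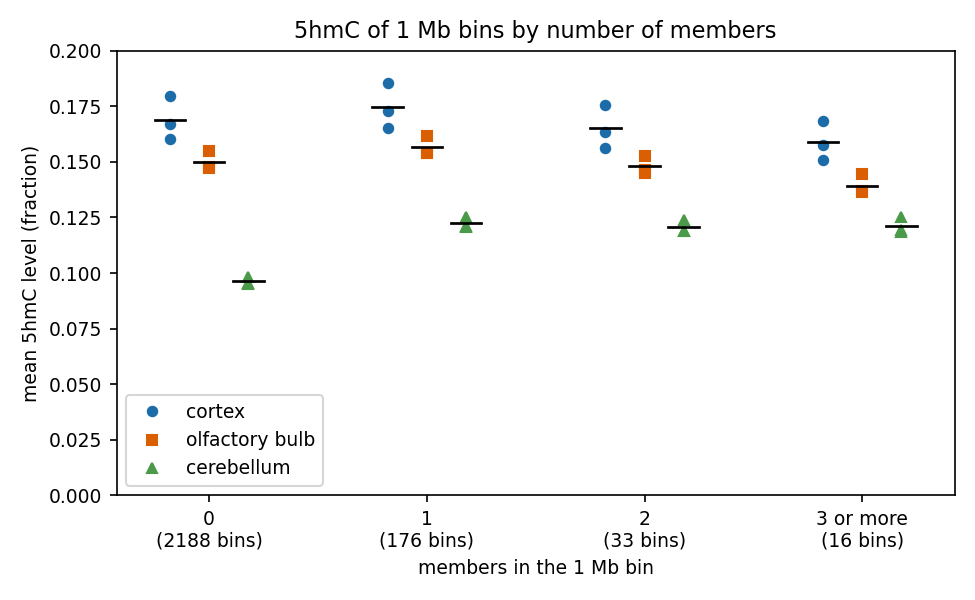
Mean 5hmC level (fraction, vertical axis) of autosomal 1 Mb bins by the number of members they hold (horizontal axis, with the number of bins); points are the 3 TAB-seq libraries of each tissue and black lines their means. Cerebellum lies at 0.0963 in bins without members and at 0.122 in bins with 1, while cortex lies at 0.169 and 0.175. In bins with 3 or more members cortex lies at 0.159 and olfactory bulb at 0.139, below the bins without members.

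Between tissues, limma (Benjamini-Hochberg over 2581 bins, adjusted p under 0.05) called 160 of the 225 bins for olfactory bulb minus cortex, or 71.1% (all bins 70.9%), with 8 higher in olfactory bulb (3.25%) and 152 lower (67.7%). For cerebellum minus cortex it called 214, or 95.1% (98.1%), with 1 higher (0.426%) and 213 lower (97.6%). For cerebellum minus olfactory bulb it called 183, or 81.3% (93.0%), with 3 higher (1.20%) and 180 lower (91.8%). The first share was near that of all bins, and the others were below it. The median difference in the bins with members was -0.22, -0.58 and -0.37, against -0.24, -0.97 and -0.72 over all bins. With each library centred on its median, the split was 80 higher (36.2% of all bins under the same centring) and 66 lower (33.0%) in the first comparison, 187 higher (50.3%) and 27 lower (40.1%) in the second, and 188 higher (50.9%) and 28 lower (39.1%) in the third. The direction of most calls thus depends on whether the shift of all bins is removed. The standard error on the log2 scale was 0.07 in every bin, since limma pooled the spread fully, and a p-value here does not reflect the spread of its own bin.

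The 1 Mb bin with the Sox2 member (chr3:34000001-35000000) had the widest differences on the fraction scale in each pair of tissues. Its 5hmC level was 0.234, 0.241 and 0.235 in olfactory bulb, 0.183, 0.197 and 0.180 in cortex and 0.0771, 0.0804 and 0.0808 in cerebellum, with no overlap. By limma the log2 difference was 0.43 ± 0.07 (SE) for olfactory bulb minus cortex (adjusted p = 2.11e-08), -1.41 for cerebellum minus cortex (3.91e-81) and -1.84 for cerebellum minus olfactory bulb (2.46e-135). The bin with Dlx6 and Dlx5 (chr6:6000001-7000000) had 0.201, 0.206 and 0.196 in olfactory bulb, 0.172, 0.185 and 0.161 in cortex and 0.0779, 0.0785 and 0.0810 in cerebellum. Its difference was 0.27 ± 0.07 for olfactory bulb minus cortex (limma adjusted p = 4.97e-04) and -1.55 for cerebellum minus olfactory bulb (8.28e-97). Around Dlx6 and Dlx5, olfactory bulb had the lowest 5mC at 100 kb and the highest 5hmC at 1 Mb. The same held around Sox2 and around Dlx1 and Dlx2, where 5hmC in olfactory bulb minus cortex did not pass (limma adjusted p = 0.0992). It did not hold around Zcchc14, where olfactory bulb had the lowest 5mC but a 5hmC level of 0.164, below 0.178 in cortex. Around Foxo3 and Snap25, cerebellum was lowest in both marks. The relation of the marks was not tested.

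The bin of Sp8, a zinc finger factor of olfactory bulb interneurons (chr12:118000001-119000000), was also higher in olfactory bulb than in cortex, by 0.25 ± 0.07 (limma adjusted p = 0.00145). The other 5 bins called higher in olfactory bulb than in cortex, named after their values were seen, held the members of Sox1, Zic4 and Zic1, Mir9-2, Zfp608 and Zmynd8. The bin of Mir9-2 (chr13:83000001-84000000) had a mean of 0.191 in olfactory bulb, 0.170 in cortex and 0.0886 in cerebellum. Lower in olfactory bulb than in cortex by most on the fraction scale were the bins of Btf3 and Foxd1 (0.147 against 0.190), of Gatd1 (0.129 against 0.170) and of Prss16 with histone genes (chr13:22000001-23000000, 0.0401 against 0.0805, with 0.0257 in cerebellum). The bin of Dmrt3 (chr19:25000001-26000000) fell by 1.502 on the log2 scale from cortex to cerebellum (limma adjusted p = 1.66e-91).

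Limma called cerebellum above olfactory bulb in 3 of the 225 bins, while the difference lay above 0 in 16. The bin of Cox20, an assembly factor of cytochrome c oxidase, and Hnrnpu (chr1:178000001-179000000) had 0.201, 0.189 and 0.194 in cerebellum, 0.149, 0.159 and 0.149 in olfactory bulb and 0.191, 0.202 and 0.182 in cortex (limma adjusted p = 6.10e-09 for cerebellum minus olfactory bulb). The bin of Foxe1 had a mean of 0.187 in cerebellum and 0.169 in olfactory bulb (0.0176), a call that was lost without olfactory bulb replicate 1, olfactory bulb replicate 3 or cerebellum replicate 3. The third, the bin with the ribosomal RNA gene (chr17:39000001-40000000, named after its values were seen), was also the 1 bin called above cortex. Its cerebellum libraries were far apart, with 0.0306, 0.0840 and 0.0988, against 0.0471, 0.0272 and 0.0381 in cortex, and they overlapped with both other tissues.

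The 1 Mb bins with most members were on chr8:70000001-71000000 and chr10:80000001-81000000, with 6 each, on chr10:81000001-82000000, with 5, and on chr6:83000001-84000000 and chr8:84000001-85000000, with 4 each. The first had 0.161, 0.135 and 0.128 in cortex, olfactory bulb and cerebellum, and the second had 0.156, 0.133 and 0.133. In both, olfactory bulb was lower than cortex (limma adjusted p = 1.40e-04 and 6.26e-04), and cerebellum minus olfactory bulb did not pass (0.195 and 0.965). The third had 0.152, 0.137 and 0.123, and the fourth 0.168, 0.144 and 0.127. In these, olfactory bulb was lower than cortex (limma adjusted p = 0.0198 and 8.10e-04) and cerebellum lower than olfactory bulb (0.0150 and 0.00453). The bin on chr8:84000001-85000000, which holds the Lyl1 member, had 0.165 ± 0.0109 in cortex (SD, n = 3), 0.153 ± 0.00327 in the olfactory bulb and 0.164 ± 0.00647 in cerebellum, and none of its 3 differences passed the test (limma adjusted p from 0.110 to 0.885).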

How the data were processed

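Sample titles gave the tissue and replicate number of each oxBS-seq and TAB-seq library. The authors mapped reads uniquely to mm10 with Bismark (version not given in the sources used here) and deposited, for each library, the 5mC level per 100 kb bin or the 5hmC level per 1 Mb bin as a fraction from 0 to 1, without coverage; the way a bin combines its sites is not given in the sources used here. RNA-seq was not analysed here. A bin had to lie above 0 and below 1 in every library of its assay, which removed 607 autosomal 100 kb bins. Last bins of 17 of 20 chromosomes ended within 100 kb of the GRCm38 end.

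Genes came from GENCODE M21, and CpG sites, islands, GC and repeats were computed from GRCm38. Levels were compared with limma 3.58.1 (R 4.3.3) on log2(level/(1 − level)), with the 3 tissues in 1 fit per assay and an adjusted p threshold of 0.05. In simulated data with the same spread in every bin, a 5mC change of 0.2 in cerebellum was found in 0.5% of changed bins against cortex. Against olfactory bulb it was found in 0%. A change of 0.5 was found in 91% and 77%. For 5hmC these were 64.5% and 60% at 0.2, and 100% in both at 0.5. Bins with a wide spread were not simulated. Other computations used Python 3.11.15, pandas 2.3.3 and scipy 1.17.1.

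The members and gene lists were chosen with earlier results of these data known. Bins named were the lowest 10, those at the edge of the choice, the lowest 3 of each developmental, histone, ribosomal, ligand and methylation list, runs of 4 or more, and the widest called differences without overlap, plus, for 5hmC, the 5 bins with most members. Some bins at the edge of the choice are not reported here.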

Additional observations from a re-analysis of the deposited data

How the results depend on the processing

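The choice of members changed little: 280 to 298 of the 300 stayed when 1 library was left out of the choice, 297 by the median of the libraries, 299 with at least 300 CpG sites, 295 with at least 90 kb of known bases, 273 from replicate 1 of each tissue alone and 250 by the mean of the tissue means. By that mean, 85.3% held a coding start, and with all gene types 97.3% held a start and the median was 6 starts. A looser island definition gave a median of 16 islands. With 200 members the mean 5mC was 0.384, 0.396 and 0.398 in cortex, olfactory bulb and cerebellum, and with 400 it was 0.421, 0.435 and 0.434.

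Counts of 5mC calls among members depended on the processing, and the cause was not tested. For olfactory bulb minus cortex (63 as reported) there were 62 with libraries centred on their medians, with the direction reversed, 32 without the filter on 0 and 1, 27 at an adjusted p under 0.01 (reversed, 11 higher and 16 lower), 39 with 200 members and 7 in the other 4 libraries for members chosen from replicate 1 (reversed). Leaving out 1 library gave 19 to 68, the lowest, reversed, without olfactory bulb replicate 1, and 31 without its replicate 2. For cerebellum minus cortex (116) there were 192 centred (reversed), 75 at the stricter threshold, 70 with 200 members, 28 in held-out libraries (reversed, 8 higher and 20 lower) and 69 to 119 without 1 library, the lowest without cerebellum replicate 1. For cerebellum minus olfactory bulb (83, with 39 higher and 44 lower) there were 51 without the filter, 50 at the stricter threshold, 56 with 200 members (reversed), 127 by the mean of tissue means, 14 in held-out libraries and 43 to 108 without 1 library. Of these, 53 without olfactory bulb replicate 1, 53 without cerebellum replicate 2, and, with the library left out of the choice only, 81 without olfactory bulb replicate 2 and 85 without cerebellum replicate 1 were reversed. The fit gave 43 without olfactory bulb replicate 2 and 50 without cerebellum replicate 1, in the reported direction.

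For 5hmC, centring gave 146, 214 and 216 calls with more higher than lower in each comparison, in the order above. The 16 bins with 3 or more members gave 13, 14 and 10 calls, fewer by construction. Leaving out 1 library gave 132 to 179, 212 to 219 and 176 to 197.

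Whether libraries with the same replicate number came from the same mouse is unknown. Same-numbered libraries did not all deviate together (r from -0.0932 to 0.029 for 5mC and from -0.191 to 0.429 for 5hmC). Deviations from a mean of 2 or 3 libraries cannot settle this. With the replicate block the 5mC counts were 60, 116 and 111 and the 5hmC counts 164, 216 and 187. With a replicate block by the numbers of the library names, the 5mC counts were 83, 138 and 85, the last reversed (47 higher and 38 lower). Without coverage the depth behind a level is unknown, and 2 or 3 libraries per tissue limit the precision.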

Other observations

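The X chromosome was outside the choice of members. Of its 1653 bins that passed the filter, 2 or 0.121% had a highest tissue mean at or below that of the highest member, against 1.25% of the autosomal bins. Both lay side by side, at chrX:12000001-12200000, and 1 of them holds the start of Bcor, a corepressor. Their 5mC level was 0.405 ± 0.0384 and 0.438 ± 0.0357 in cortex (SD, n = 3), 0.395 ± 0.0484 and 0.433 ± 0.0353 in olfactory bulb (SD, n = 2) and 0.445 ± 0.0175 and 0.462 ± 0.0107 in cerebellum (SD, n = 2). Of the 607 autosomal bins left out by the filter, 587 were listed at 0 in all 7 libraries and 20 were above 0 in some.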
